A study of Homo sapiens with 42 samples.

Results

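NF-kB is a family of dimeric transcription factors that drives genes of inflammation, adhesion and survival. The genes described here are 10 parts of that system: the subunits NFKB1, NFKB2, REL, RELA and RELB, the regulators TRAF3, BIRC3 and TNFAIP3, and the targets LTB and ICAM1. Every probe set annotated to a member gene alone was taken, which gave 21 of the 54675 probe sets on the array and covered 9 of the 10 genes, out of 19775 genes with a probe set annotated to them alone. BIRC3 had no such probe set, so its signal was not analysed and it enters below through its upstream sequence only. Of the 21 probe sets, 18 passed the filter on dim probe sets, which asked for a signal no lower than an array's median on at least 3 of the 42 arrays. The 3 that did not, NFKB2 211524_at, REL 206035_at and TRAF3 221571_at, reached that median on 0, 1 and 0 arrays. The genes were named without reference to direction, but with earlier results of these data known.

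The cells were RPMI-8226, an established line of multiple myeloma, the malignancy of antibody-secreting plasma cells. The study asked what BMI1, which belongs to the repressive Polycomb complex PRC1, does in such cells. One derivative line carried a stably introduced, inducible shRNA against BMI1 and the other an inducible control shRNA, and 100 ng/ml doxycycline (dox) switched the hairpin on. The 14 groups of 3 arrays were the BMI1-shRNA line with dox at 24, 32 and 48 h and without dox at 0, 24, 32 and 48 h, and the control-shRNA line with and without dox at the same times. All groups grew in the same medium with low serum, and none carried cells without an introduced hairpin. Each hairpin was carried by 1 line, so hairpin and line cannot be told apart when the lines are compared. The labels of the BMI1-shRNA arrays at 0 h conflict: their titles give no dox, their characteristics give dox and their source name gives the control line. Nothing in the labels says that numbered replicates were separate cultures, and the p-values reflect the spread between these arrays alone.

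In the canonical branch of the pathway, inhibitor proteins hold dimers such as those of RELA with the NFKB1 product in the cytoplasm until the IKK kinase complex marks the inhibitors for destruction. In the alternative branch, the kinase MAP3K14 accumulates once TRAF3 no longer has it degraded, and the NFKB2 precursor is then cut to a form that pairs with RELB. Myeloma cells often carry lesions in these regulators, and plasma cells depend on NF-kB signals from surface receptors of the TNF receptor family.

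Values are MAS5 signals (intensity), scaled by the authors so that the trimmed mean was 150.02 to 150.03 on every array, with array medians of 16 to 22.5. Signals of different probe sets were not read as relative transcript levels, since each responds on its own scale. BMI1 itself had a signal of 177.5 ± 32.0 with dox and 975 ± 112 without dox in the BMI1-shRNA line (SD, n = 9 each), a log2 difference of -2.43 ± 0.06 (SE). In the control-shRNA line that difference was 0.03 ± 0.06. On the 0 h arrays with conflicting labels BMI1 read 1009.3 to 1069.4. That was above the dosed BMI1-shRNA arrays, at 139.8 to 234, and below the control-shRNA arrays at 0 h, at 1214.5 to 1296.7. The reading goes with the line named in their titles. It cannot decide between dox and no dox, since at 0 h dox would have had no time to lower BMI1. Plasma cell markers SDC1, PRDM1, XBP1, IRF4, CD38 and TNFRSF17 were retained in both lines, SLAMF7 was not, and their summed signal over 7 markers ran from 6333 to 7805 in the BMI1-shRNA line and from 5731 to 7711 in the control-shRNA line. The 3 epithelial markers summed to 3275 to 4133 in the BMI1-shRNA line and 2558 to 3674 in the control-shRNA line, nearly all of it EPCAM, which averaged 3443 in the BMI1-shRNA line and 3058 in the control-shRNA line, while KRT5 averaged 13.9 in the BMI1-shRNA line and 10.9 in the control-shRNA line, below the array medians.

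Upstream sequence of 4 members is shown because ICAM1, LTB, REL and NFKB1 carry most of the differences below. Each is the 250 bases before a RefSeq transcript start on the gene's own strand in GRCh38.p14: ICAM1 at chr19:10270870-10271119 (plus strand), LTB at chr6:31582426-31582675 (minus strand), REL at chr2:60881324-60881573 (plus strand) and NFKB1 at chr4:102501109-102501358 (plus strand). LTB and NFKB1 have a further window that is not shown. Capitals mark matches to the kappa B decamer, the sequence NF-kB dimers bind, or, in ICAM1, to its shorter core, GGNNNTTCC.

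ICAM1: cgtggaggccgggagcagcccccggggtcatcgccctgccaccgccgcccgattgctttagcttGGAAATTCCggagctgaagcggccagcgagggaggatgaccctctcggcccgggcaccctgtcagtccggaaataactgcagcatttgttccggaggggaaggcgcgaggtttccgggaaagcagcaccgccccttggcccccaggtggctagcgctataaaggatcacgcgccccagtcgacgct
LTB: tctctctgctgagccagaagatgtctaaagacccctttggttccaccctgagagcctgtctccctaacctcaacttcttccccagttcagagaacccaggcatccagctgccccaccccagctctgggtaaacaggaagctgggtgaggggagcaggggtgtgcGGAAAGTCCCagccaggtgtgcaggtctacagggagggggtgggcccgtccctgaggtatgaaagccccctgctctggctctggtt
REL: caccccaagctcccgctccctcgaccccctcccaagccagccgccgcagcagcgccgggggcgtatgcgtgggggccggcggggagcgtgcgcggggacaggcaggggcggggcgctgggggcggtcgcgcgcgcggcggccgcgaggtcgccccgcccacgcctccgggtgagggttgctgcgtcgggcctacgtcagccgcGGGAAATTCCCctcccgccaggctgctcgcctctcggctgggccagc
NFKB1: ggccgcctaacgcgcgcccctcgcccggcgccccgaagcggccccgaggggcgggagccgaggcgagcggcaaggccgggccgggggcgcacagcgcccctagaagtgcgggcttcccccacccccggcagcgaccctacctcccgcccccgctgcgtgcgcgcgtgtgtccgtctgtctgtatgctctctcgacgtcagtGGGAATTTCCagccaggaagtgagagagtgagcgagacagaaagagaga

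Searched on both strands, with overlapping matches counted separately, the decamer lay in 9 of the 14 upstream windows given for 9 member genes, and in at least 1 window of 7 genes: NFKB1, NFKB2, REL, TRAF3, BIRC3, TNFAIP3 and LTB. The LTB windows at chr6:31582426-31582675 and chr6:31582425-31582674 overlap and hold the same match, so the 9 are not all separate. Of all 35093 upstream windows of the same length, 5.2% held the decamer. The match began 86 bases before the start in LTB (GGAAAGTCCC as printed, a match on the opposite strand) and 49 bases before it in NFKB1 (GGGAATTTCC), and in REL a match on each strand overlapped at 47 and 46 bases before the start. The ICAM1 window held no decamer and 1 core match, GGAAATTCC at 186 bases before the start, which matched on both strands. Of all windows, 17.1% held the core. The NFKB1 window that is not shown, at chr4:102501684-102501933, held no decamer and no core match, and neither did the RELA windows. RELB had no entry. These matches describe letters in the sequence and not occupancy, which the arrays did not measure.

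With the BMI1 hairpin induced, the adhesion receptor gene ICAM1 fell. The ligand gene LTB was lower at 48 h by 1 of 2 probe sets. For LTB the difference between the lines' dox effects did not pass (limma adjusted p = 0.208). No retained probe set of the 5 subunit genes, TRAF3 or TNFAIP3 passed the test. ICAM1 encodes the cell surface ligand of leukocyte integrins and is a classical NF-kB target; LTB encodes the membrane-bound partner of lymphotoxin alpha, which signals through LTBR to the alternative pathway. Averaged over 24, 32 and 48 h, 4 of the 18 probe sets were lower with dox and 0 were higher, all 3 for ICAM1 and 1 of 2 for LTB (limma, Benjamini-Hochberg adjusted p under 0.05 over 35235 probe sets). That is 22.2% of the member probe sets, where 3.39% of all tested probe sets were lower and 5.83% differed in either direction. The 3 ICAM1 probe sets measure 1 gene, so the count stands for 2 genes. The median difference was -0.06 over the 18 probe sets and 0.03 over all 35235. Because the arrays hold RNA of whole cultures, fewer cells expressing a gene and less of its RNA per cell cannot be told apart.

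The brightest ICAM1 probe set, 202637_s_at, read 757.7, 776.8 and 828.2 with dox at 24 h, against 1064.2, 1067.7 and 977.1 without dox. At 32 h the signals were 832.8, 797.6 and 730.8 with dox, against 943.1, 1032.2 and 983.0 without dox. At 48 h they were 728.0, 778.6 and 719.8 with dox, against 977.2, 926.7 and 977.4 without dox. All 9 dosed arrays lay below all 9 undosed ones at these times, with no overlap. Their means were 772.3 ± 42.0 with dox and 994.3 ± 49.9 without dox (SD, n = 9 each), a log2 difference of -0.36 ± 0.04 (SE, limma adjusted p = 2.67e-09), or 1.29-fold lower on the scale of log2(signal + 5.4).

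The other bright probe set, 202638_s_at, showed the same separation. It ran from 389.2 to 486.8 with a median of 460.5 with dox, and from 525.7 to 615.4 with a median of 548.9 without dox. The difference was -0.32 ± 0.03 (limma adjusted p = 7.35e-10). The dimmer 215485_s_at had 192.8 ± 14.6 with dox and 225.5 ± 23.4 without dox, with overlapping ranges, and its difference of -0.22 ± 0.06 passed narrowly (limma adjusted p = 0.0374). It passed in 7 of the 18 fits that left out 1 array, where its adjusted p ran from 0.00932 to 0.114, and it did not pass without the 0 h arrays (0.0587).

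The ICAM1 difference was already present at 24 h. For 202637_s_at it was -0.39, -0.32 and -0.37 at 24, 32 and 48 h, each ± 0.06 (limma adjusted p = 0.000251, 0.00223 and 0.000166). For 202638_s_at it was -0.32, -0.30 and -0.33, each ± 0.05 (limma adjusted p = 0.000361, 0.00053 and 4.59e-05). The change in effect between 24 and 48 h was 0.02 ± 0.09 and -0.01 ± 0.08, with adjusted p of 0.98 and 0.988. With only the 6 arrays of a time in the fit, both probe sets failed the test at 32 h (0.108 and 0.164), and 202638_s_at failed at 24 h (0.0607) and 48 h (0.0912).

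**Figure D1:**
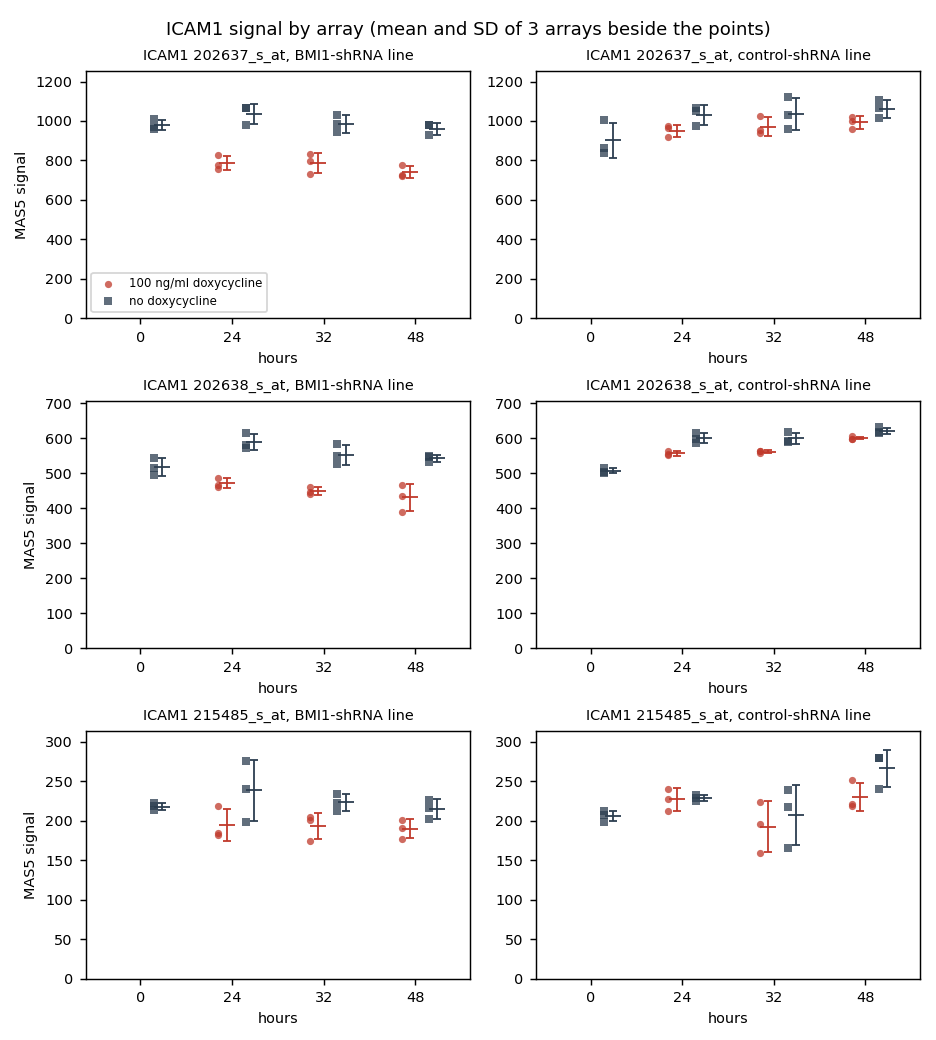
ICAM1 MAS5 signal (vertical axes, linear) against hours (horizontal axes) for 3 probe sets in the BMI1-shRNA and control-shRNA lines. Points are arrays with dox (circles) and without dox (squares), and bars are the mean and SD of 3 arrays. In the BMI1-shRNA line all 9 dosed arrays of 202637_s_at, at 719.8 to 832.8, sit below all 9 undosed ones at 24 to 48 h, at 926.7 to 1067.7.

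In the control-shRNA line, dox called 0 of the 18 member probe sets, where 0.071% of all tested probe sets were called (limma); 2 had an unadjusted p under 0.05, both for ICAM1. For 202637_s_at the signals were 971.9 ± 36.8 with dox and 1042.3 ± 54.9 without dox (SD, n = 9 each), a difference of -0.10 ± 0.04 (limma adjusted p = 0.759). For 202638_s_at they were 572.8 ± 21.2 with dox and 606.8 ± 15.6 without dox, a difference of -0.08 ± 0.03 (limma adjusted p = 0.745). The 3 dosed arrays of 202638_s_at lay below the 3 undosed ones at each of the 3 times, by less than in the BMI1-shRNA line.

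The test of the difference between the lines' dox effects passed for both bright ICAM1 probe sets. It was -0.26 ± 0.05 for 202637_s_at (limma adjusted p = 0.00166) and -0.23 ± 0.04 for 202638_s_at (limma adjusted p = 0.000636), and it passed in each of the 36 fits that left out 1 array. For 215485_s_at it was -0.11 ± 0.09 (limma adjusted p = 0.682). Thus 2 of the 18 member probe sets were called lower in that comparison, against 1.76% of all tested probe sets called lower and 2.53% called in either direction.

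LTB 207339_s_at was called lower with dox at 48 h and not at 24 or 32 h. At 48 h it read 38.3, 43.9 and 39.7 with dox in the BMI1-shRNA line, against 77.7, 61.7 and 53.9 without dox, and the groups did not overlap. At 24 h the signals were 54.1, 58.4 and 46.3 with dox, against 52.0, 64.3 and 58.9 without dox. At 32 h they were 54.7, 50.3 and 52.0 with dox, against 64.2, 57.5 and 52.4 without dox. At both earlier times the groups overlapped. The difference was -0.13 ± 0.13 at 24 h and again at 32 h (limma adjusted p = 0.826 and 0.858), and -0.59 ± 0.13 at 48 h (limma adjusted p = 0.00341). With only the 6 arrays of 48 h in the fit, the 48 h difference did not pass (0.266).

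Over the 3 times the LTB difference was -0.28 ± 0.08 (limma adjusted p = 0.0148), and it rested on the 48 h arrays: without them it was -0.13 (0.629). The high undosed array at 48 h, replicate 1, also mattered, since without it the mean difference was -0.24 (0.053) and the 48 h difference -0.46 (0.0668). The effect at 48 h was -0.46 ± 0.18 apart from that at 24 h, which did not pass (limma adjusted p = 0.422). In the control-shRNA line the dox difference was -0.01 ± 0.08, and the difference between the lines' effects was -0.28 ± 0.11 (limma adjusted p = 0.208), so a dox effect particular to the BMI1-shRNA line was not shown for LTB. The dimmer probe set, 1559754_at, did not follow: it had 24.1 ± 8.3 with dox and 21.8 ± 7.9 without dox, a difference of 0.15 ± 0.20 (limma adjusted p = 0.788).

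At single times in the BMI1-shRNA line, the calls were those of ICAM1 202637_s_at and 202638_s_at at 24 h and 32 h, and these with LTB 207339_s_at at 48 h. They make 2, 2 and 3 of 18 probe sets lower, where 0.897%, 1.38% and 3.83% of all tested probe sets were called in either direction and 0.715%, 1.13% and 2.7% lower. Between 24 and 48 h the effect changed for 0 of the 18 (limma, 3 at an unadjusted p under 0.05), where 0.275% of all tested probe sets were called.

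**Figure D2:**
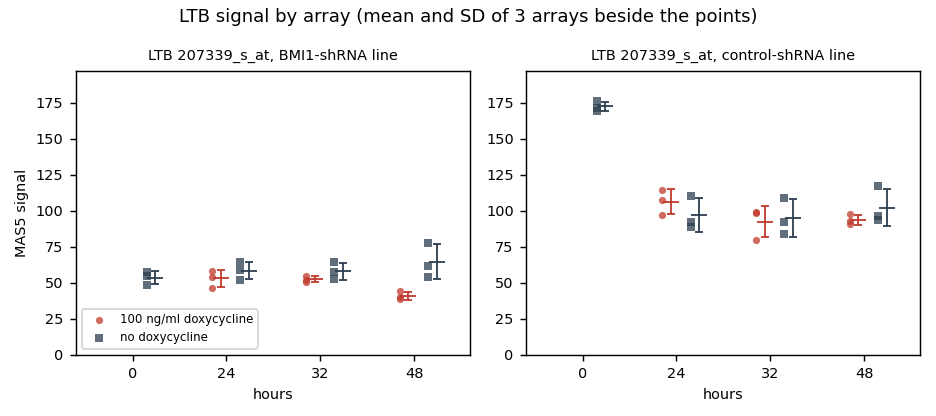
LTB 207339_s_at MAS5 signal (vertical axes, linear) against hours (horizontal axes) in the BMI1-shRNA and control-shRNA lines, with dox (circles) and without dox (squares). Bars are the mean and SD of 3 arrays. The dosed BMI1-shRNA arrays at 48 h lie at 38.3 to 43.9, and the control-shRNA arrays at 0 h at 169.5 to 176.2 lie above every other array.

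The subunit genes gave no call with dox in the BMI1-shRNA line. NFKB1, whose precursor is processed to a DNA-binding subunit, had 327.1 ± 23.1 with dox and 337.8 ± 13.9 without dox (SD, n = 9 each), a difference of -0.05 ± 0.04 with a 95% interval of -0.13 to 0.04. RELA, the transactivating subunit of the canonical dimer, had differences of -0.08 ± 0.05 for 201783_s_at and -0.16 ± 0.06 for 209878_s_at (limma adjusted p = 0.439 and 0.15). For REL, the subunit prominent in lymphocytes, the 4 retained probe sets ran from -0.17 to 0.02, with the lowest adjusted p 0.188. These intervals leave room for small changes, and a p above the threshold does not show that the levels were equal.

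No member of the alternative branch was called with dox either. NFKB2, the precursor of the subunit that pairs with RELB, had -0.05 ± 0.08 for 207535_s_at and 0.38 ± 0.19 for 209636_at (limma adjusted p = 0.83 and 0.314). RELB read 40.0 ± 8.9 with dox and 40.7 ± 8.4 without dox, a difference of -0.02 with an interval of -0.27 to 0.23. TRAF3, the adaptor that keeps MAP3K14 low, read 24.2 ± 7.1 with dox and 23.2 ± 6.3 without dox, and its interval of -0.46 to 0.57 was the widest of the 18. TNFAIP3, a ubiquitin-editing enzyme that shuts off NF-kB signalling and is itself an NF-kB target, had -0.15 ± 0.14 and -0.03 ± 0.10 for its 2 probe sets.

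**Figure D3:**
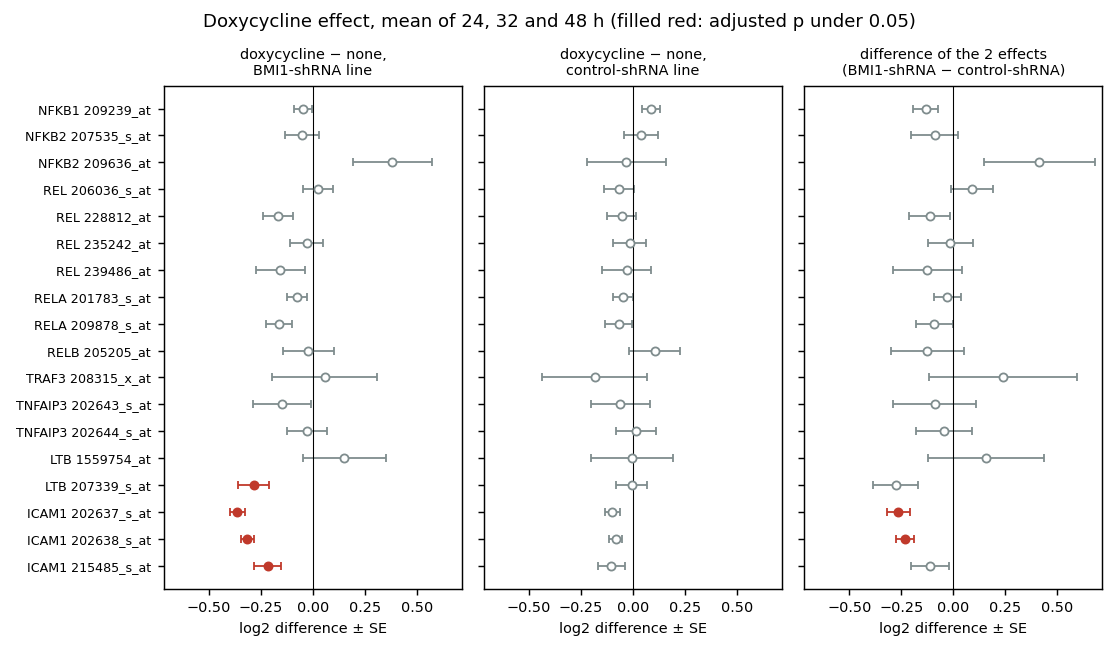
Log2 difference of dox against no dox (horizontal axes, points with SE bars) for the 18 retained member probe sets. Panels show the BMI1-shRNA line, the control-shRNA line and the difference between the lines' dox effects. Filled red points passed an adjusted p under 0.05. In the BMI1-shRNA line the filled points are ICAM1 at -0.36, -0.32 and -0.22 and LTB 207339_s_at at -0.28. No point is filled in the control-shRNA line. In the difference between the lines, ICAM1 202637_s_at at -0.26 and 202638_s_at at -0.23 are filled.

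Without dox the lines themselves differed in the subunits. The BMI1-shRNA line had more REL and RELA signal and less NFKB1 and NFKB2 signal than the control-shRNA line, and less LTB signal by 1 of 2 probe sets. Over 24, 32 and 48 h, 6 of the 18 probe sets were higher and 5 lower in the BMI1-shRNA line (limma), 61.1% in all and spread over 6 genes. The lines differed widely: 17% of all tested probe sets were higher and 18.1% lower, 35.1% in all. Several of the member calls fell on the same gene. With 1 probe set per gene in the fit, 5 of 9 members were called, where 42.6% of 14705 genes were called. With a filter at the 75th percentile, 58.82% of all probe sets kept were called. The member share is therefore not read as an excess. The median difference was near 0 in both the members and all probe sets.

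REL was higher by all 4 retained probe sets. Probe set 228812_at ran from 106.1 to 146.4 with a median of 124.4 in the BMI1-shRNA line, and from 71.5 to 97.9 with a median of 85.5 in the control-shRNA line. The ranges did not overlap, and the difference was 0.55 ± 0.07 (limma adjusted p = 2.64e-08), 1.47-fold higher. The ranges of 206036_s_at were also separate, with 103.0 ± 9.7 in the BMI1-shRNA line and 74.3 ± 9.4 in the control-shRNA line (SD, n = 9 each). The other REL probe sets, 235242_at and 239486_at, were higher by 0.36 ± 0.08 and 0.51 ± 0.12 (limma adjusted p = 0.000207 and 0.000536), with overlapping ranges.

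RELA was higher by a smaller margin. Its 201783_s_at signal was 675.4 ± 23.0 in the BMI1-shRNA line and 608.6 ± 42.7 in the control-shRNA line, a difference of 0.15 ± 0.05 (limma adjusted p = 0.00811). For 209878_s_at the difference was 0.26 ± 0.06 (limma adjusted p = 0.000929). In both RELA probe sets the ranges of the lines overlapped.

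NFKB1 was lower in the BMI1-shRNA line, which ran from 320.2 to 361.9 with a median of 334.1, against 345.6 to 453.1 with a median of 424.1 in the control-shRNA line. The difference was -0.30 ± 0.04 (limma adjusted p = 4.27e-07), and 1 control-shRNA array, at 345.6, lay within the range of the BMI1-shRNA line. NFKB2 was lower by both retained probe sets. Probe set 209636_at had 22.6 ± 12.1 in the BMI1-shRNA line and 38.7 ± 8.1 in the control-shRNA line, a difference of -0.78 ± 0.19 (limma adjusted p = 0.000982). The BMI1-shRNA signal lay near the array medians, with its lowest array at 2.9. The difference passed under each setting but ran from -0.97 to -0.52, so its size is uncertain. For 207535_s_at it was -0.23 ± 0.08 (limma adjusted p = 0.0245), a call lost in 5 of the 18 fits that left out 1 array, where the adjusted p reached 0.0943, and with only these groups in the fit (0.0576).

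**Figure D4:**
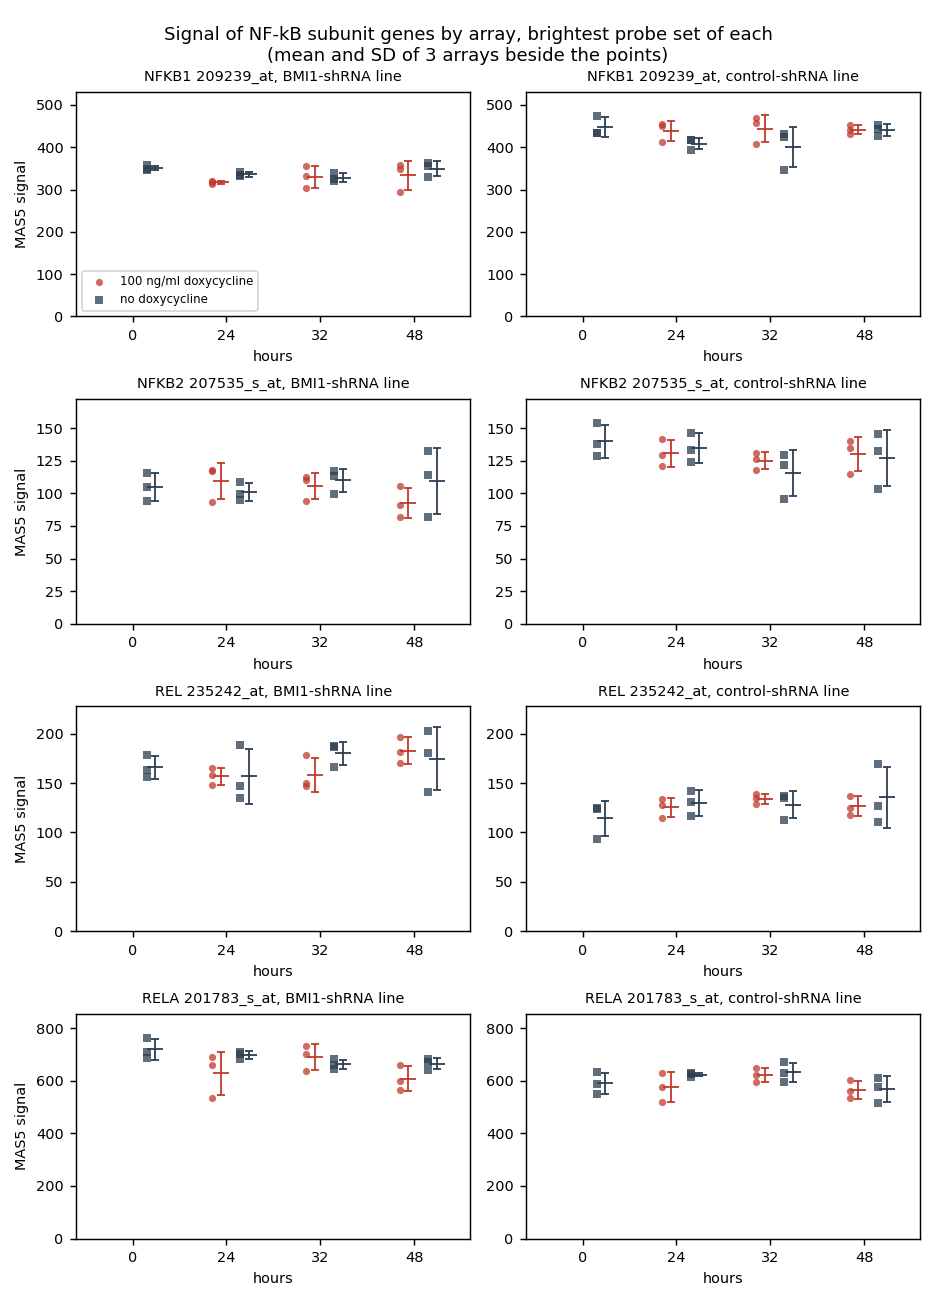
MAS5 signal (vertical axes, linear) of NFKB1, NFKB2, REL and RELA by array against hours (horizontal axes), 1 probe set per gene, in the BMI1-shRNA line and the control-shRNA line. Circles are arrays with dox, squares are arrays without dox, and bars are the mean and SD of 3 arrays. The brightest probe set of each gene is drawn; without dox at 24 to 48 h, REL 235242_at lies at 135.2 to 203.2 in the BMI1-shRNA line and at 110.2 to 169.6 in the control-shRNA line, and NFKB1 at 320.2 to 361.9 in the BMI1-shRNA line and at 345.6 to 453.1 in the control-shRNA line.

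LTB 207339_s_at had the smallest adjusted p of the members for the line difference. It read 60.3 ± 8.0 in the BMI1-shRNA line and 98.0 ± 11.4 in the control-shRNA line (SD, n = 9 each), with no overlap and a difference of -0.66 ± 0.08 (limma adjusted p = 2.63e-09), 1.58-fold lower. ICAM1 202638_s_at was lower by 1.08-fold, with a difference of -0.11 ± 0.03 (limma adjusted p = 0.00344), while 202637_s_at at -0.07 ± 0.04 and 215485_s_at at -0.05 ± 0.06 did not pass. LTB 1559754_at (-0.01 ± 0.20, limma adjusted p = 0.973), RELB (-0.19 ± 0.12), TRAF3 (0.20 ± 0.25) and TNFAIP3 (0.08 ± 0.14 and 0.01 ± 0.10) did not pass either.

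At 0 h, where the BMI1-shRNA arrays carry the conflicting labels, 5 of the 18 were higher and 3 lower in the BMI1-shRNA line, where 20.8% of all tested probe sets were called (limma). REL had 0.43, 0.52, 0.53 and 0.55, RELA 0.28 and 0.35, NFKB1 -0.34 and NFKB2 -0.40 and -0.54. Of these, REL 239486_at (adjusted p = 0.0507) and NFKB2 209636_at (adjusted p = 0.289) did not pass. ICAM1 202638_s_at turned its sign, to 0.03 ± 0.05 (adjusted p = 0.802).

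Several measures moved with the line. The signal at the 3-prime end of GAPDH over that at its 5-prime end, which rises as RNA degrades, was 0.935 ± 0.0251 in the BMI1-shRNA line and 1.03 ± 0.0401 in the control-shRNA line (SD, n = 21 each). The B cell marker MS4A1 averaged 108.7 in the BMI1-shRNA line and 17.3 in the control-shRNA line, and the epithelial marker CDH1 376.6 in the BMI1-shRNA line and 45.3 in the control-shRNA line. Summed B cell markers, 3 measured of 4, ran from 108.5 to 212.9 in the BMI1-shRNA line and from 56.2 to 104.4 in the control-shRNA line. MS4A1 alone carried that gap, since PAX5 averaged 35.4 in the BMI1-shRNA line and 38.8 in the control-shRNA line, and CD79B 10.8 in the BMI1-shRNA line and 15.01 in the control-shRNA line. The sums for T cell, monocyte, fibroblast and endothelial markers overlapped between the lines. Their part in the line differences was not tested.

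**Figure D5:**
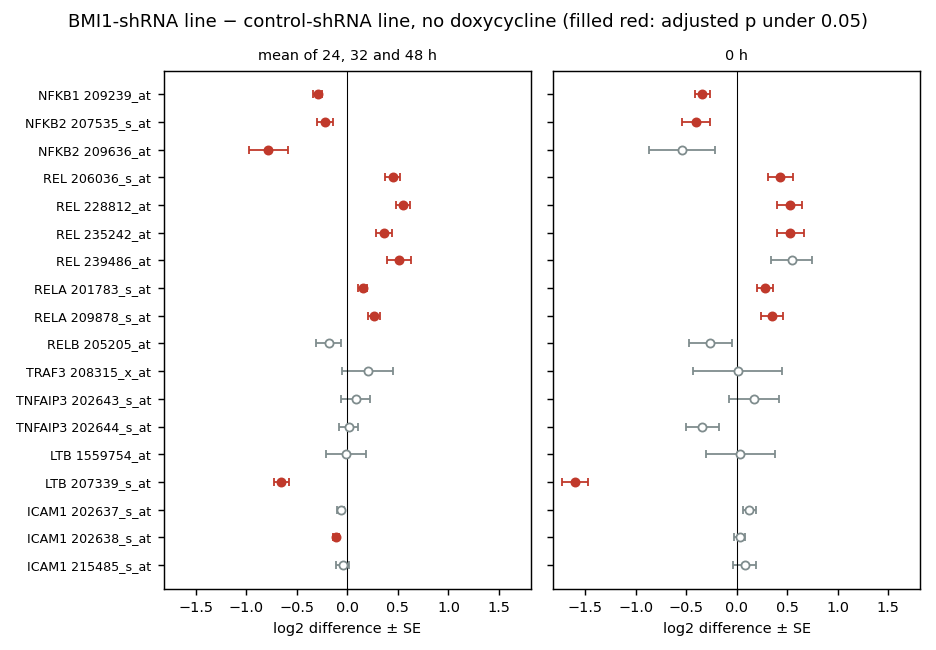
Log2 difference of the BMI1-shRNA line against the control-shRNA line without dox (horizontal axes, points with SE bars) for the 18 retained member probe sets, as the mean of 24, 32 and 48 h and at 0 h. Filled red points passed an adjusted p under 0.05. REL and RELA lie to the right and NFKB1, NFKB2 and LTB 207339_s_at to the left at both, and LTB moves outward at 0 h, to -1.60.

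Time without dox moved the 2 target genes in opposite directions in the control-shRNA line. Between 0 and 48 h, 2 of the 18 probe sets rose, both for ICAM1, and 1 fell, for LTB (limma), where 3.56% of all tested probe sets were called. LTB 207339_s_at had 93.2, 96.0 and 117.2 at 48 h, against 169.5, 171.6 and 176.2 at 0 h, with no overlap. The difference was -0.73 ± 0.13 (limma adjusted p = 0.000363), 1.66-fold lower. It was present at 24 h, at 110.4, 88.9 and 91.8, a difference of -0.80 ± 0.13 from 0 h (limma adjusted p = 0.00022), where 0.925% of all tested probe sets were called.

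ICAM1 202638_s_at had 614.6, 618.8 and 630.7 at 48 h, against 501.7, 514.5 and 504.4 at 0 h in the control-shRNA line, again without overlap. It rose by 0.29 ± 0.05 (limma adjusted p = 0.000595), or 1.22-fold, and by 0.24 ± 0.05 at 24 h (limma adjusted p = 0.0155). With only the 6 arrays of the comparison in the fit, the rise at 48 h did not pass for 202638_s_at (0.0933) or 202637_s_at (0.241). With all groups in the fit, the rise of 0.24 ± 0.06 for 202637_s_at passed (limma adjusted p = 0.0287), but its call was lost in 4 of the 6 fits that left out 1 array: without 48 h replicate 1 or 3, or 0 h replicate 1 or 3, the adjusted p ran from 0.0561 to 0.178. The dimmer 215485_s_at had a difference of 0.36 ± 0.11 (limma adjusted p = 0.0668). TNFAIP3 202644_s_at had 61.9, 62.5 and 54.7 at 48 h, against 91.8, 83.9 and 87.7 at 0 h, a difference of -0.52 ± 0.17 that did not pass (limma adjusted p = 0.0755).

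In the BMI1-shRNA line without dox, 0 of the 18 differed between 48 and 0 h (limma, 0 at an unadjusted p under 0.05), where 2.53% of all tested probe sets were called; the 0 h arrays are those with conflicting labels. LTB 207339_s_at read 77.7, 61.7 and 53.9 at 48 h, against 48.4, 57.2 and 54.3 at 0 h, a difference of 0.24 ± 0.13 (limma adjusted p = 0.379). The time effect of LTB differed between the lines by 0.97 ± 0.18 (limma adjusted p = 0.0119), the single call of 18 where 0.139% of all tested probe sets were called. That call was lost without the BMI1-shRNA array of replicate 1 at 48 h (0.84, adjusted p = 0.0691) or at 0 h (0.91, 0.054), and with 24 h in place of 48 h (0.92, 0.0533). For ICAM1 the differences of time effects were -0.27, -0.22 and -0.38, with adjusted p from 0.41 to 0.591.

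Seen over all 14 groups, LTB 207339_s_at stood highest in the control-shRNA line at 0 h. The other control-shRNA groups overlapped each other, with arrays from 79.8 to 117.2. Every array of the BMI1-shRNA line lay below them, at 38.3 to 77.7. ICAM1 202637_s_at was lowest in the 3 dosed groups of the BMI1-shRNA line, which overlapped each other at 719.8 to 832.8, and every other array read 835.7 or more.

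Each member's brightest retained probe set was also set against 14696 other genes by Pearson's r over the 14 group means, after each line was centred. The genes most like ICAM1 were PANK3 (r = 0.951), WNK1 (0.948) and CNOT8 (0.946). Those most like LTB were SSBP4 (0.932), CASP2 (0.914) and IRF5 (0.9), and the best for RELA was CUL3 (0.907) and for REL LRRN2 (0.946). The 14 groups share lines, dox and array scaling, and these values are a description of likeness only.

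The wider pathway was read from lists of 127 further genes, of which 100 had a retained probe set with 1 gene symbol; the brightest stood for the gene. The lists were chosen with earlier results of these data known. With dox in the BMI1-shRNA line 4 of the 100 rose and 6 fell (limma), 10% in all, where 7.53% of 14705 genes were called. In the control-shRNA line 0 rose and 1 fell, where 0.122% of genes were called, and in the difference of dox effects 0 rose and 2 fell, where 3.31% were called. The share in the BMI1-shRNA line was thus near that of all genes.

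Among receptors and ligands, 2 of 15 were called. TNFRSF13C, the BAFF receptor, is counted as a fall (limma adjusted p = 0.0422), but its means of 6.16 ± 4.33 with dox and 13.1 ± 6.0 without dox (SD, n = 9 each) both lay below the array medians with overlapping ranges, so no size is given. TNFRSF17, the plasma cell receptor BCMA, rose by 0.13 ± 0.03 (limma adjusted p = 0.0108). Among adapters and kinases, 2 of 22 were called: IKBKG, the regulatory subunit of IKK, rose by 0.23 ± 0.07 (limma adjusted p = 0.0217), and the adapter TRAF5 fell by 0.13 ± 0.04 (limma adjusted p = 0.0417).

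Of 19 inhibitors, TAX1BP1, which brings TNFAIP3 to its substrates, was the single call. It had 988.4 ± 68.1 with dox and 1197.8 ± 51.4 without dox, ranges that did not overlap at 891.9 to 1097.6 and 1134.3 to 1294.1. It fell by 0.28 ± 0.03 (limma adjusted p = 2.33e-08), and its difference of dox effects between the lines was -0.31 ± 0.04 (limma adjusted p = 8.67e-06).

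Of 14 survival and cell cycle targets, FAS, the death receptor, fell by 0.58 ± 0.06 (limma adjusted p = 2.7e-09). It had 196.8 ± 32.1 with dox and 294.0 ± 12.7 without dox, and the difference between the lines' effects was -0.62 ± 0.09 (limma adjusted p = 3.32e-06). GADD45B, a stress-response gene, rose by 0.23 ± 0.05 (limma adjusted p = 0.00105). None of the 9 cytokine and chemokine genes was called. Among 22 surface and other targets BASP1 rose by 0.58 ± 0.16 (limma adjusted p = 0.0199) and STX11 fell by 0.57 ± 0.15 (limma adjusted p = 0.0143), both with overlapping ranges. IRF2 fell by 0.32 ± 0.05 without overlap (limma adjusted p = 1.27e-05). Of the 22, 0 were called in the difference of dox effects. IRF2 was also the 1 gene that fell with dox in the control-shRNA line, by 0.34 ± 0.05 (limma adjusted p = 0.000136). A list of 11 genes recalled from published myeloma NF-kB signatures, 10 of them tested, gave 0 calls with dox in either line.

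Between the undosed lines 31 of the 100 wider genes were higher and 19 lower in the BMI1-shRNA line, where 42.6% of all genes were called. Higher in the BMI1-shRNA line were TNFRSF1A, the main TNF receptor (0.98 ± 0.06), SHARPIN and RBCK1 of the linear ubiquitin ligase (0.89 ± 0.09 and 0.74 ± 0.05), IKBKB (0.49 ± 0.07), MAP3K14 (0.49 ± 0.06), the nuclear inhibitor NFKBIZ (0.76 ± 0.09), CCL2 (1.85 ± 0.07), CD44 (3.48 ± 0.10) and CD74 (2.80 ± 0.05). Lower were BCL2A1, an anti-apoptotic target (-2.99 ± 0.18), IL2RG, the common cytokine receptor chain (-3.76 ± 0.15), BASP1 (-2.54 ± 0.16) and the chemokine gene CCL5 (-1.18 ± 0.11). The survival genes next in size after BCL2A1, namely CCND2, BCL2 and BCL2L1, were higher in the BMI1-shRNA line. BCL2 differed by 0.76 ± 0.06 and BCL2L1 by 0.72 ± 0.08. The chemokine gene CXCL10 was also higher in the BMI1-shRNA line (1.03 ± 0.05). The listed targets moved both ways: cytokines 3 higher and 3 lower of 9, survival genes 6 and 4 of 14, and the myeloma signature 3 and 3 of 10.

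Over 48 h without dox in the control-shRNA line, 3 of the 100 rose and 4 fell, where 4.43% of genes were called. TNFRSF17 had 1623.7 ± 139.4 at 48 h and 1005.9 ± 47.4 at 0 h (SD, n = 3 each) and rose by 0.69 ± 0.06 (limma adjusted p = 2.55e-10). The chemokine genes CXCL10 and CCL2 fell by 0.75 ± 0.08 and by 0.64 ± 0.12, alongside LTB, and CD74 fell by 0.61 ± 0.09. In the BMI1-shRNA line without dox 1 of the 100 rose, the caspase inhibitor CFLAR (0.18 ± 0.05), where 3.29% of genes were called. CFLAR also rose in the control-shRNA line, by 0.28 ± 0.05 (limma adjusted p = 0.000538). The time effects differed between the lines for TNFRSF17 (-0.64 ± 0.08) and CXCL10 (0.91 ± 0.12), 2 of the 100, where 0.143% of genes were called. The time effects of the BMI1-shRNA line, and their difference from the control-shRNA line, rest on its 0 h arrays, whose labels conflict.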

How the data were processed

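Messenger RNA of 42 RPMI-8226 samples was measured on Affymetrix U133 Plus 2 arrays, 1 per sample. The deposited values are intensity: linear MAS5 signals per probe set, per the submitters' processing notes, with the version not given in the sources used here. Arrays have no read depth, and 3 per group limit the precision. Of 54675 probe sets, 62 controls were left out, and 35235 reached the median of an array on at least 3 arrays. Of all 54675 probe sets, 41097 had 1 gene symbol and 1801 several, and 11721 had none with the controls left out. Values were taken as log2(signal + 5.4), with 5.4 the 25th percentile over the table, so folds of dim probe sets are understated. A single limma model (version 3.58.1, R 4.3.3) held the 14 group means (intensity trend, 28 residual and 8.41 prior degrees of freedom). Tests were two-sided, adjusted by Benjamini-Hochberg over 35235 probe sets and called under 0.05, in 11 comparisons. Each probe set was a feature; for the wider lists the brightest retained probe set with 1 symbol stood for its gene (14705 genes). The members and lists were chosen with earlier results of these data known. All members are named, and from each wider list at most 4 called genes with the largest absolute difference, some of them given only as counts. Data were simulated with each probe set's mean and spread, over 35235 probe sets. Changes of log2 0.3, 0.5 and 1 were put into 67, 67 and 66 of them, the rest being unchanged. The dox comparison in the BMI1-shRNA line recovered 25.4%, 52.2% and 86.4% of these, with 6 false calls. In the data 5.83% of probe sets were called, a larger share than was changed here, so the rates need not hold there. Replicate numbers were not used as pairs. Between arrays of different groups, deviations correlated at a mean r of 0.00185 for the same number and -0.00092 for different numbers. These means run over all times and both lines, so they cannot exclude pairing within a time. The labels give no scan date or batch. The alternatives were other pseudocounts, quantile normalization, other filters, 1 probe set per gene, no intensity trend, only the groups of the comparison, the 0 h arrays left out, the replicate number as a block, and each array left out in turn. Comparisons at other times were added after seeing the data. Upstream sequences are RefSeq windows of GRCh38.p14.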

Additional observations from a re-analysis of the deposited data

Results flagged for a closer look

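The dox effect on ICAM1 differed between the lines by a test of the difference itself, for 2 of its 3 probe sets. For 202637_s_at the effect was -0.36 in the BMI1-shRNA line and -0.10 in the control-shRNA line, a difference of -0.2632 on the log2 scale (limma adjusted p = 0.00166). For 202638_s_at it was -0.32 in the BMI1-shRNA line and -0.08 in the control-shRNA line, a difference of -0.2324 (limma adjusted p = 0.000636). The 3 dosed arrays of 202638_s_at lay below the 3 undosed ones at each of the 3 times in both lines.

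The change of LTB 207339_s_at between 0 and 48 h without dox also differed between the lines, by 0.9717 (limma adjusted p = 0.0119). It was 0.24 in the BMI1-shRNA line and -0.73 in the control-shRNA line. The labels of the BMI1-shRNA arrays at 0 h conflict, and 1 array left out was enough to lose the call, as given above. Groups of 3 arrays are too small for a test of single outlying arrays, so none was made.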

How the results depend on the processing

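Over 1739 values recomputed under the planned settings other than leaving out an array, 14 lost a call and 2 gained one, and over 2592 values with 1 array left out 24 lost a call and 2 gained one; none of these called values changed sign. ICAM1 202637_s_at and 202638_s_at kept their calls for the mean dox effect in the BMI1-shRNA line and for the difference of dox effects under each setting that could be fitted and each array left out. With 1 probe set per gene, the number of members called fell to 2 for the mean dox effect in the BMI1-shRNA line, 1 at 24 h, 1 at 32 h, 1 for the difference of dox effects and 5 for the line difference, since each gene then has 1 feature. With only the groups of the comparison in the fit, which leaves fewer arrays to estimate the spread, the count was 1 at 24 h, 0 at 32 h, 1 at 48 h, 1 for the control-shRNA line over time and 0 for the difference of time effects; the mean dox effect on LTB then had an adjusted p of 0.0969 and its difference of time effects 0.177. The share of all probe sets called fell too when only the groups of the comparison were fitted. It went from 0.897% to 0.474% at 24 h, from 1.38% to 0.624% at 32 h and from 3.83% to 1.46% at 48 h. For the control-shRNA line over time it went from 3.56% to 0.752%, and for the difference of time effects from 0.139% to 0.0312%. With the mean of 24 and 32 h in place of all times, chosen after seeing the data, the dox count in the BMI1-shRNA line was 2, and with 24 h in place of 48 h the difference of time effects gave 0. The line difference of ICAM1 202638_s_at reversed at 0 h, to 0.02764; the cause was not tested. Leaving out single arrays gave 3 to 4 members called for the mean dox effect in the BMI1-shRNA line, 2 to 3 at 24 h, 2 at 32 h, 2 to 3 at 48 h, 2 for the difference of dox effects, 10 to 11 for the line difference, 2 to 3 for the control-shRNA line over time and 0 to 1 for the difference of time effects. In the same order, the share of all probe sets called ran from 5.07% to 5.61%, 0.534% to 0.707%, 0.971% to 1.35% and 2.906% to 3.295%. It then ran from 2.24% to 2.75%, 33.6% to 34.6%, 2.2% to 4.65% and 0.0596% to 0.139%. The single ICAM1 215485_s_at call failed without a filter (0.054), without an intensity trend (0.0558) and without the 0 h arrays (0.0587). TNFAIP3 202644_s_at passed over time in the control-shRNA line after quantile normalization (0.0205). The share of all probe sets called for the mean dox effect ran from 3.283% without a filter to 14.98% with a filter at the 75th percentile. Whether the replicate numbers pair the arrays is not known. The replicate block left the count for the mean dox effect at 4, with ICAM1 202637_s_at at -0.3626 (limma adjusted p = 3.38e-09), and it lost no member call. Signals near the array median, as for TRAF3 and NFKB2 209636_at, limit what can be seen of those genes.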
